A study of Saccharomyces cerevisiae with 4 samples.

Results

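The prospore membrane and spindle pole genes are 10 budding yeast genes: SPO21, MPC54, SPO74, ADY4, NUD1, BBP1, SSP1, ADY3, DON1 and SPO20. They were chosen by name for their place in the meiotic spindle pole outer plaque, the leading edge coat and the fusion of the prospore membrane, and the rule uses no measured value, but the list was drawn up with earlier results of these data known. All 10 had an entry in the RefSeq table of 6002 protein-coding genes on the 16 nuclear chromosomes. Of these, 8 are known from sporulation only, and BBP1 and NUD1 also serve the spindle pole body of growing cells.

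Chromatin immunoprecipitation and sequencing (ChIP-seq) was done on *Saccharomyces cerevisiae* in early log phase, grown at 30 °C in rich medium with glucose. One strain carried HA-tagged Hst1 (LRY0558), one carried HA-tagged Sir2 (LRY1926), and a mock IP with the same anti-HA antibody used the parental strain (LRY1009). Hst1 and Sir2 are related NAD+-dependent histone deacetylases. A genomic input of the parental strain was not analysed here. The labels give neither mating type nor ploidy, and the cells were growing, not sporulating.

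When a diploid yeast cell sporulates, the cytoplasmic face of each spindle pole body is rebuilt into a thick outer plaque. Vesicles dock and fuse there to start the prospore membrane, which then grows around a haploid nucleus with a protein coat at its leading edge. Many genes of this machinery are middle sporulation genes, which the activator Ndt80 switches on in meiosis. In growing cells the repressor Sum1, which recruits Hst1 through Rfm1, holds many middle sporulation genes off.

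Each IP had 1 list of peaks, so there was no replicate check and no test between IPs. The Hst1 list held 692 peaks whose median length was 400.5 bp and whose median fold enrichment was 2.22. The Sir2 list held 159 peaks and the mock IP list 3. Fold is the authors' own value at a summit, the highest point of a peak, relative to their peak caller's local background, and it ranks peaks within a list only. The −log10 q of a peak is the authors' measure of how sure the call is. The sequencing depth is unknown.

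Hst1 had a summit in the 500 bp upstream or in the body of 5 of the 10 genes, SPO21, MPC54, SPO74, SSP1 and BBP1. Among all 6002 protein-coding genes, 613 had such a summit (10.2%). Sir2 had a summit at 0 of the 10, against 1.4% of all genes, and the mock IP at 0 of the 10, against 0.05%. Of the 5 Hst1 summits, 3 lay in the 500 bp upstream, where 8.41% of all genes had one, and 2 lay just inside the coding sequence, where 1.93% of all genes had one. ADY4, ADY3, DON1, SPO20 and NUD1 had no part of an Hst1 peak in either stretch. When any part of a peak was counted, the 10 genes still had 5, and all genes 14.6%. The windows had a median length of 1939 bp in the 10 genes, against 1700 bp over all genes. It was 1895 bp in the 5 genes with an Hst1 summit and 1982 bp in the 5 without one.

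**Figure D1:**
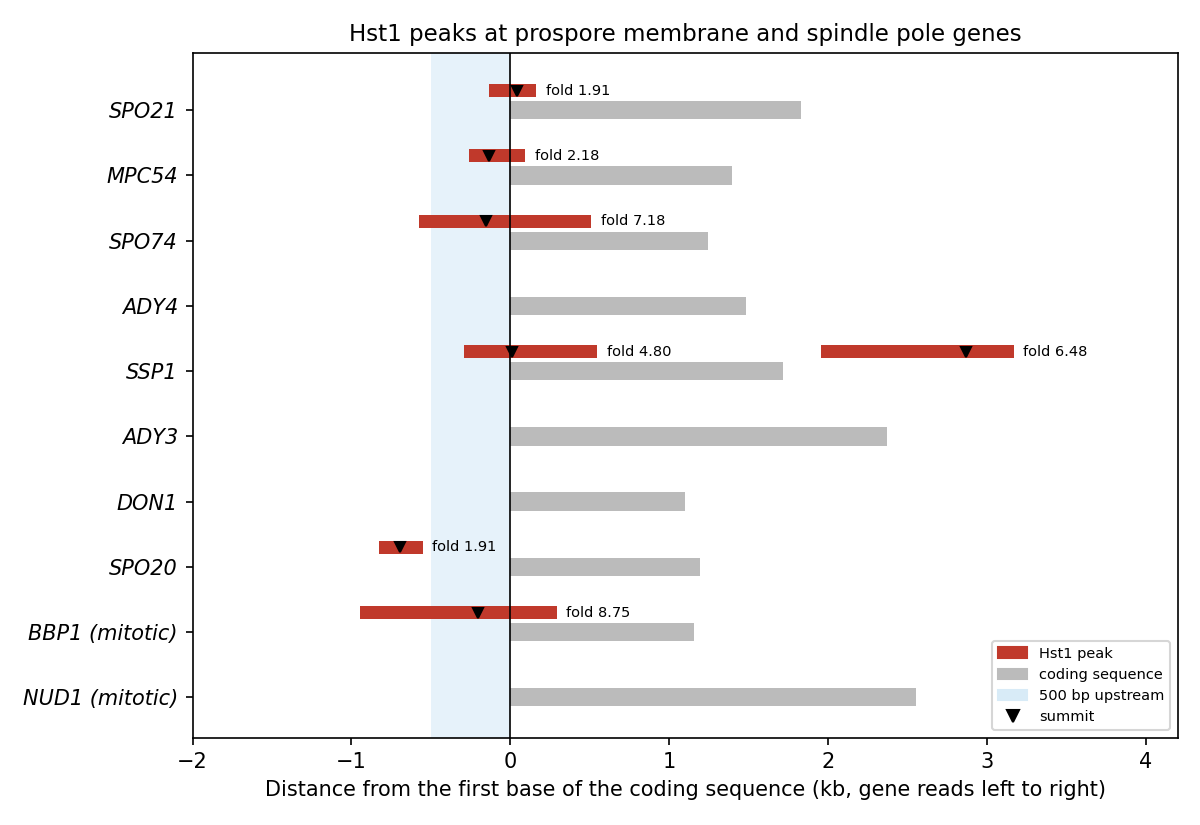
Each row is 1 gene, drawn from the first base of its coding sequence (0 kb) in the direction of transcription, with the coding sequence in grey, Hst1 peaks within 2 kb in red, and summits as black triangles. The 5 peaks at SPO21, MPC54, SPO74, SSP1 and BBP1 all span the start of the gene, the SPO20 peak ends short of the 500 bp window, and Sir2 and the mock IP had 0 peaks within 2 kb.

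Of the 4 outer plaque genes used in sporulation only, 3 had an Hst1 summit, against 10.2% of all genes. SPO74 had the strongest of these. Spo74 is a component of the meiotic outer plaque, and its gene lies on VII from 184153 to 185394 on the minus strand (sacCer3 coordinates throughout). The Hst1 peak ran from 184885 to 185966, with a summit 151 bp upstream of the gene. Its fold was 7.18 and its −log10 q was 152. It ranked 19 of 692 by fold. The peak covered the whole 500 bp upstream and 510 bp of the body. It also held the tRNA gene YNCG0007C (VII, 185714 to 185786), 169 bp from the summit. A tRNA gene was touched by 86 of the 692 Hst1 peaks (12.4%), and its part in the SPO74 peak was not tested.

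SPO21 and MPC54 encode the main structural proteins of the meiotic outer plaque, and both had Hst1 peaks of lower fold than SPO74. At MPC54 (XV, 665785 to 667179, minus strand) the peak spanned 667086 to 667440, with a summit 132 bp upstream. Its fold was 2.18 and its −log10 q 8.84, rank 364 of 692, below the median fold of the list. It covered 261 of the 500 bp upstream and 94 bp of the body. At SPO21 (XV, 145334 to 147163, plus strand) the peak was shorter still, from 145200 to 145498. The summit lay 45 bp inside the coding sequence, where the fold was 1.91 and the −log10 q was 5.41, rank 503 of 692. It covered 134 bp upstream and 165 bp of the body. These 2 were the only peaks of the 5 under a −log10 q of 10, so at that minimum the set had 3 of 10 genes with a summit, against 6.33% of all genes. SPO74 was then the only outer plaque gene left with a summit.

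ADY4, whose product helps to hold the outer plaque together, had no Hst1 peak nearby. The gene lies on XII from 590562 to 592043, and the nearest Hst1 peak was 14.9 kb away, with its summit upstream of BNA5, a gene of NAD+ synthesis. Of all protein-coding genes, 77.7% lay nearer to an Hst1 peak than ADY4 did. A Sir2 peak lay 2.07 kb away (XII, 594112 to 594489, fold 2.23), with its summit inside the Ty retrotransposon genes YLR227W-B and YLR227W-A. Ty sequences are repeated in the genome, so the placement of reads in them is uncertain.

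The leading edge coat gave 1 gene of 3 with an Hst1 summit, against 10.2% of all genes. Ssp1, Ady3 and Don1 form a ring at the growing edge of the prospore membrane, and Ssp1 is needed to build the coat. At SSP1 (VIII, 472744 to 474459, plus strand) the Hst1 peak spanned 472452 to 473291, and its fold of 4.80 and −log10 q of 65.9 put it at rank 70 of 692. The summit lay 11 bp inside the coding sequence, and the peak covered 292 bp upstream and 548 bp of the body. A second and stronger Hst1 peak began 242 bp past the end of SSP1 (VIII, 474701 to 475912, fold 6.48, rank 34). Its summit was 273 bp upstream of PFS1, a gene that also acts in prospore membrane formation and reads towards SSP1. PFS1 was named after its values were seen. That peak too held a tRNA gene, YNCH0016C.

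ADY3 and DON1 were both farther from an Hst1 peak than the median over all genes, 5.74 kb. ADY3 (IV, 26403 to 28775) was 17.0 kb from the nearest, in SOR2, and 81.2% of all genes were nearer to one. DON1 (IV, 1010176 to 1011273) was 10.8 kb from the nearest, upstream of PHM6, and 68.6% of all genes were nearer. The nearest Sir2 peaks were 24.4 kb from ADY3, at the left end of the chromosome, and 19.4 kb from DON1, in the Ty gene YDR261C-D. So SSP1 had an Hst1 peak across its start, while the genes of its 2 partners in the coat had none in their windows.

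SPO20 encodes the SNAP-25-like SNARE that drives fusion of vesicles into the prospore membrane, in place of the growth form Sec9. The gene (XIII, 307489 to 308682, plus strand) had an Hst1 peak of 274 bp outside the window (306664 to 306937). Its summit lay 693 bp upstream and in no annotated gene, and it had a fold of 1.91 (−log10 q 8.46). It was the first summit outside the 500 bp limit, whereas the farthest of the 5 summits inside the windows, at BBP1, was 205 bp upstream. With 1000 bp upstream the set had 6 of 10, SPO20 included, and all genes 14.4%.

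BBP1 and NUD1, the 2 genes used in mitosis, differed from each other. Bbp1 is a spindle pole body component that helps to anchor it in the nuclear envelope. BBP1 (XVI, 67725 to 68882, plus strand) had the Hst1 peak of second rank in the whole list, from 66777 to 68017, at a fold of 8.75 (−log10 q 199.9). Its summit lay 205 bp upstream, and it covered the whole 500 bp upstream and 293 bp of the body. CLN2, the G1 cyclin gene that reads away from BBP1, starts 906 bp from the same summit. NUD1 encodes an outer plaque scaffold of the mitotic exit network (XV, 1036834 to 1039389). It had no Hst1 peak in its window, and the nearest was 4.94 kb away with a fold of 2.26. That distance was ordinary, since 46.3% of all genes were nearer to an Hst1 peak.

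Between the groups, Hst1 summits were found at 4 of 8 sporulation-only genes and at 1 of 2 mitotic genes, 50.0% in both. Among all genes the share was 10.2%. The median fold of the summits was 3.49 at the 4 sporulation-only genes, against 8.75 at BBP1 alone. The highest value thus lay at a mitotic gene, and the sporulation-only folds ran from 1.91 to 7.18. The BBP1 peak also reaches towards the start of CLN2, and which of these genes it belongs to is not shown. With 2 mitotic genes and 1 list the groups cannot be told apart by a test. At a −log10 q of at least 10 the counts were 2 of 8 and 1 of 2, against 6.33% of all genes. Sir2 and the mock IP had 0 summits in both groups, against 1.4% and 0.05% of all genes.

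**Figure D2:**
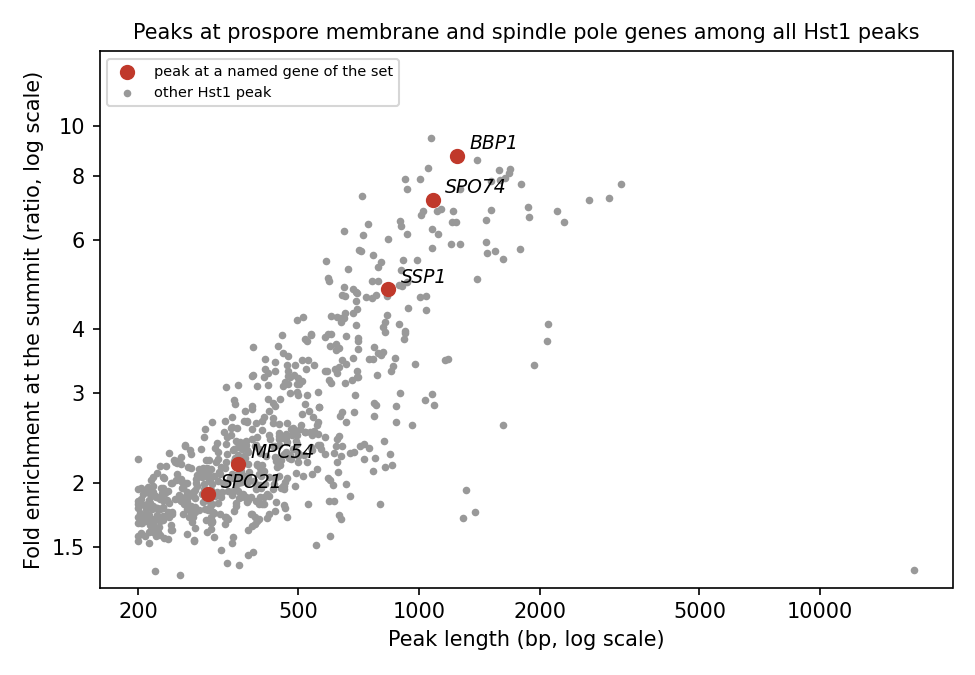
Each point is 1 of the 692 Hst1 peaks, with its length (bp) on a log axis and the authors' fold at its summit on a log axis; the 5 red points are the peaks at the named genes. BBP1, SPO74 and SSP1 sit among the long, strong peaks with folds of 8.75, 7.18 and 4.80, and MPC54 and SPO21 sit in the dense part of the list at 2.18 and 1.91.

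The 5 peaks thus ranged from high in the list to below its median fold, with MPC54 near the middle. BBP1, SPO74 and SSP1 had peaks of 1241, 1082 and 840 bp, and 99.7%, 97.3% and 89.7% of the Hst1 peaks had a lower fold. MPC54 and SPO21 had peaks of 355 and 299 bp, and 47.4% and 27.0% of the peaks had a lower fold. The median over the 5 was a fold of 4.80, against 2.28 over the 613 genes with an Hst1 summit. The 5 peaks are separate, and the summits lay in the 500 bp upstream or the body of no other annotated gene. SUA5, a tRNA modification gene that reads away from SPO74 on the other side of this summit, came closest. Its start was 514 bp from the SPO74 summit.

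What the 5 peaks shared was their place. Each covered the first base of the coding sequence, which was so at 5 of the 10 genes, against 3.37% of all protein-coding genes. Among genes with an Hst1 summit, the first base lay under an Hst1 peak in 5 of 5 and in 179 of 613 (29.2%) over all such genes. The summits lay between 250 bp upstream and 50 bp inside the coding sequence in 5 of 5, against 160 of 613 (26.1%). The first-base measure was not planned, and that interval was chosen after the positions were seen, so neither contrast is a test. The median summit was 132 bp upstream in the 5 and 284 bp upstream in the 613. The peaks had a median length of 840 bp in the 5 and 401 bp in the 613, and the part of length was not tested. A summit shared by neighbouring genes counts for each of them in the 613. Among the further prospore membrane genes below, SPO77, IRC10, SMA1 and GIP1 had summits in the same interval (102, 134, 160 and 250 bp upstream). YSW1, SPS1, SPO19 and SMA2 did not. The place was not particular to prospore membrane and spindle pole genes. Other sporulation genes, among them SPS22, GAS2 and CDA2, had summits in that interval (-40, -87 and -97 bp from the first coding base). DIT2 and SPO75 did not (-316 and -305 bp). These genes were named after their values were seen, and sporulation genes as a whole were not counted.

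**Figure D3:**
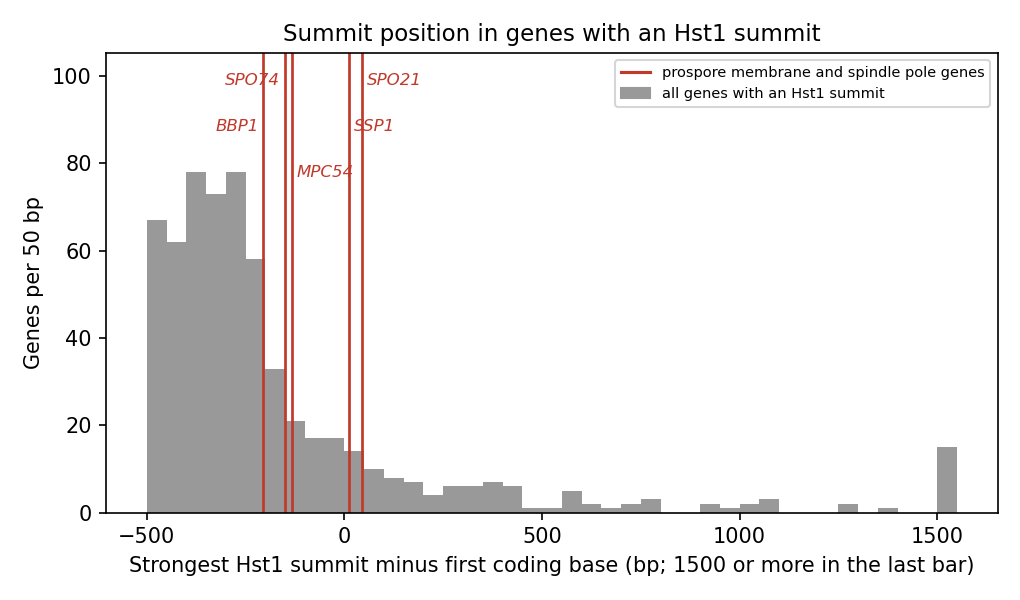
The histogram counts the 613 genes with an Hst1 summit by the distance of their strongest summit from the first coding base (bp, 50 bp bars), and red lines mark the 5 named genes among them. The lines run from 205 bp upstream at BBP1 to 45 bp inside SPO21, to the right of most of the histogram, whose median is 284 bp upstream.

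In bp covered, Hst1 peaks took up 1687 of the 5000 bp upstream of the 10 genes (33.7%), against 7.13% of the upstream windows of all genes. In the bodies they covered 1610 of 16044 bp (10.0%), against 1.06% over all genes. The body coverage lay at the start of each gene, and was largest at SSP1 (548 bp) and SPO74 (510 bp). Sir2 and mock IP peaks covered 0 bp of both, against 1.54% and 0.0522% of the upstream windows of all genes. Over the 10 genes the distance to the nearest Hst1 peak had a median of 0.276 kb, against 5.74 kb over all genes. The 5 genes touched by a peak stand at 0, and SPO20 is next at 0.552 kb. That median thus restates the count of 5 of 10. To the nearest Sir2 peak the median distance was 23.7 kb, against 64.6 kb over all genes. The nearest were at ADY4 (2.07 kb) and BBP1 (6.75 kb), and the farthest was at SPO74 (165.8 kb). The nearest Sir2 peaks of SPO21, MPC54, ADY4, BBP1, SSP1 and DON1 had their summits inside Ty genes. The 10 genes lay 26.4 kb (ADY3) to 520.7 kb (DON1) from the nearest chromosome end.

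Other genes of the same processes were read with the same windows, in lists drawn up with earlier results of these data known. Of 13 further prospore membrane genes, 8 had an Hst1 summit (61.5%), against 10.2% of all genes. The strongest were YSW1, a gene needed for normal prospore membrane shape (fold 4.72, 273 bp upstream), SPO19, a sporulation gene (4.65), SPS1, a sporulation kinase gene (4.42, 305 bp upstream), GIP1, a sporulation subunit gene of protein phosphatase 1 (4.37, 250 bp upstream), and SPO77 (3.42, 102 bp upstream). IRC10, which encodes a further leading edge protein, had a summit 134 bp upstream with a fold of 2.26, close to that of MPC54. SMA2 (2.33) and SMA1 (2.29) were the others. Of the 8 summits, 6 lay upstream. Those in SPO19 and SMA2 lay 22 and 26 bp from the far end of the gene and also upstream of a neighbour, TAF14 and ERV41, so which gene they belong to is not shown. Sir2 and the mock IP had 0 of 13, against 1.4% and 0.05% of all genes.

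Spindle pole body genes of growing cells, other than BBP1 and NUD1, had 1 of 15 with an Hst1 summit (6.67%), and 0 of 15 in the 500 bp upstream. The 1 was MPS3, which encodes a nuclear envelope protein of the pole body, with a fold of 1.98 at a summit 8 bp from the far end of the gene. Vesicle fusion genes shared with growth, among them SEC9, SSO1 and SNC1, had 0 of 10, and early meiosis genes had 1 of 12 (8.33%). When any part of a peak was counted, the vesicle fusion list had 1 of 10, and all genes 14.6%. In the early meiosis list the gene was REC8, the meiotic cohesin gene, with a summit 6 bp from its far end (fold 2.30) and upstream of ICL2. Sir2 and the mock IP had 0 in these 3 lists, where lists this short would seldom hold any at the all-gene shares of 1.4% and 0.05%. The share with an Hst1 summit was thus near or under the background in these 3 lists, and above it in the 10 genes and in the 13 further prospore membrane genes; none of these shares was tested.

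**Figure D4:**
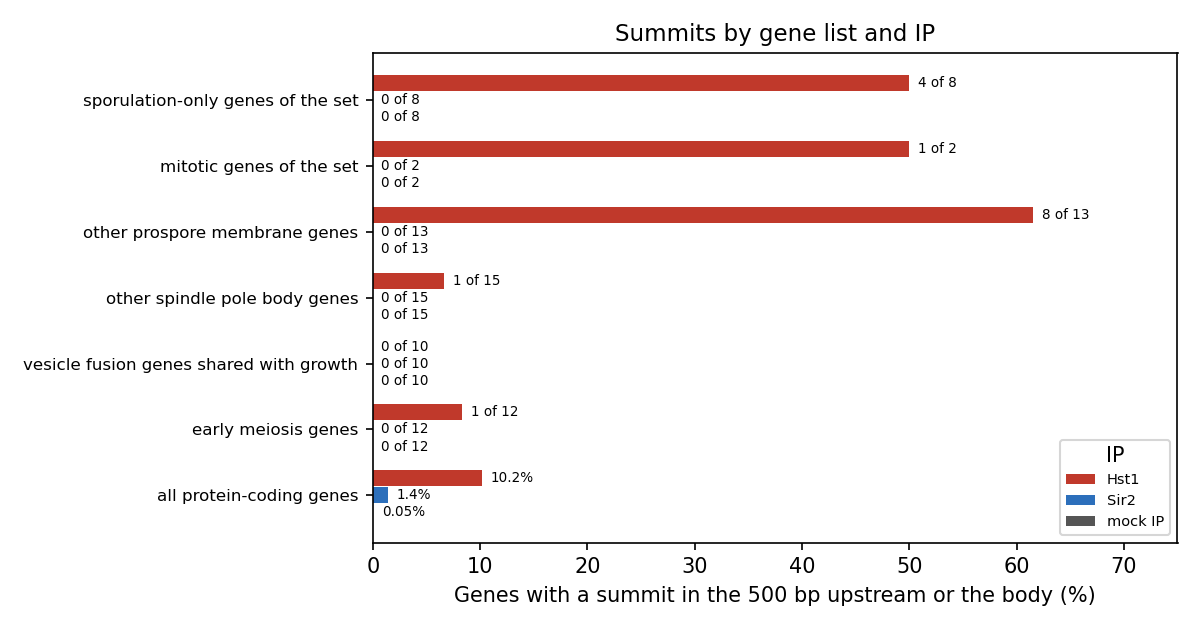
Bars give the share of genes (%) with a summit in the 500 bp upstream or the body, for Hst1, Sir2 and the mock IP, in each gene list and over all 6002 protein-coding genes. Hst1 bars stand at 4 of 8, 1 of 2 and 8 of 13 in the top 3 rows, against 10.2% over all genes. Sir2 and mock IP bars are at 0 in every list, against 1.4% and 0.05% over all genes.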

How the data were processed

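Chromatin was crosslinked with dimethyl adipimidate and formaldehyde and recovered with anti-HA antibody, per the labels' protocols. Reads were handled with BWA and MACS2 on sacCer3, per the submitters' processing notes. Versions, cutoffs, the control library and any pooling of the 2 technical replicates were not given in the sources used here. If the mock IP was that control, background shared with it would already have been removed. The authors deposited, per peak, a fold enrichment (a ratio), −log10 p and −log10 q values, and a score that is 10 times the −log10 q. No counts were given.

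Peak starts were made 1-based. Gene spans came from RefSeq (assembly R64, from which sacCer3 was made), strands from the systematic names. Gene starts are coding starts, since the lengths are mostly multiples of 3. Analysis used Python 3.11.15, pandas 2.3.3 and numpy 2.4.6, and the counting was tested on simulated peaks. All 10 genes, and the genes at the same or the nearest peak, were named, with up to 5 genes of highest fold in each other list. Further genes were named only where a count or a summit position is explained. Genes were counted, not tested: genes are not replicates, and each IP had 1 list. The members and lists were chosen with earlier results of these data known. Alternatives varied peak threshold, window length, overlap, control peaks and tRNA genes. No genome sequence was used, so the planned motif comparison was not run and no sequences are shown.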

Additional observations from a re-analysis of the deposited data

How the results depend on the processing

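No paired analysis was possible because each IP had 1 list. The number of genes with an Hst1 summit was 5 of 10 (all genes 10.2%). It was also 5 with 250 bp upstream (all genes 4.3%), any part of a peak (14.6%) and at least 100 bp of a peak (13.2%). The same 5 came with windows cut at the neighbouring gene (8.53%) and with removal of peaks overlapping the mock IP (10.2%, 0 removed). The share of all genes moved in these settings, except where 0 peaks were removed. The count could not change with 250 bp upstream, since all 5 summits lay within 205 bp of the start. With 1000 bp upstream it was 6 (14.4%), and without peaks that touch a tRNA gene (added once the SPO74 peak had been seen to hold one) it was 4 (9.35%), SPO74 being lost. It was 3 with a −log10 q minimum of 10 (6.33%), 3 among the strongest 50% by fold (5.31%; both without SPO21 and MPC54) and 3 with the body left out (8.41%; without SPO21 and SSP1). In the same settings the sporulation-only count of 4 became 2 each time, and the mitotic count stayed at 1 in every setting. The upstream count of 3 (all genes 8.41%) became 5 with any part of a peak (12.5%) and 5 with at least 100 bp (11.3%). The body count of 2 (1.93%) became 1 with a −log10 q minimum of 10 (0.95%), 1 among the strongest 50% (0.733%), 5 with any part of a peak (6.01%) and 4 with at least 100 bp (4.68%). These changes follow from how each setting is built. Sir2 and the mock IP had 0 genes in every setting run, where the share of all genes was at most 2.8% and 0.0666%. Hst1 coverage of the 10 genes, 3297 bp, ranged from 2643 bp at the stricter thresholds to 4091 bp with 1000 bp upstream. The motif alternative was not run. Because depth is unknown, a gene without a peak cannot be called free of Hst1.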
